A study of Arabidopsis thaliana with 6 samples.

Results

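The 10 berberine bridge enzyme-like genes of Arabidopsis thaliana described here were measured across rosettes of the sid2.2 mutant and of the wild type Col-0. The genes are AT1G26380, AT1G26390, AT1G26400, AT1G26410, AT1G26420, AT1G30700, AT4G20860, AT5G44360, AT5G44380 and AT5G44390. They were taken by locus, each through a probe set that the platform annotation pairs with 1 gene only. All 10 loci had exactly 1 such probe set, so none was dropped; the array holds 22810 probe sets, and 13286 genes have such a probe set. The loci were chosen with the genotype difference of several of them already known. Their levels and genotype differences are therefore a description of the genes that were picked, and nothing is supported with them.

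Berberine bridge enzyme-like proteins are flavin-dependent oxidases, most of them secreted into the cell wall, which oxidise a substrate and pass the electrons to oxygen as hydrogen peroxide or to another acceptor. In Arabidopsis several characterised members act on cell wall fragments: the oligogalacturonide oxidase OGOX1 (AT4G20830) acts on pectin fragments, and the cellodextrin oxidase CELLOX1 (AT4G20860) acts on cellulose fragments. FOX1 (AT1G26380) takes part in the synthesis of an indolic cyanogenic metabolite made during pathogen defence, and its transcript is widely used as a marker of the response to microbial and cell wall elicitors.

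The mutant sid2.2 is defective in ICS1, the isochorismate synthase of the main route to the defence hormone salicylic acid. It was compared with Col-0 in 3 consecutive cultures set months apart, and each culture gave 1 pool of whole rosettes from more than 6 plants per genotype. There were thus 3 arrays of sid2.2 and 3 of Col-0. Plants of both genotypes were kept at 0.016 mM sulfate to day 60, in days of 8 h light (160 µmol m-2 s-1) and 16 h dark, so every array is from sulfate-limited plants and no sulfate-replete group was analysed here. Arrays are named by genotype and culture. Values are linear MAS5 signals, a brightness per probe set with background subtracted within the array. They can be compared between arrays for 1 probe set but not between probe sets. In pools of whole rosettes, fewer cells of a type and less RNA per cell cannot be told apart.

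Background on each array was taken as the 95th percentile of 27 Bacillus subtilis control probe sets and lay between 27.9 and 39.9. Within each genotype 1 array correlated least with the others over the 13647 probe sets past a low-signal limit: sid2.2 culture 2 (mean r 0.938, the other sid2.2 arrays 0.944 and 0.957) and Col-0 culture 3 (mean r 0.910, the other Col-0 arrays 0.930 and 0.942). That limit left out the dimmest 40% by mean log2 signal. Against all other arrays Col-0 culture 3 had a mean r of 0.935, the highest of the Col-0 arrays (cultures 1 and 2: 0.929 and 0.913). For sid2.2 culture 2 it was 0.915, the lowest of the sid2.2 arrays (cultures 1 and 3: 0.947 and 0.938). Of 16 fixed tissue and senescence markers, 3 had a probe set with 1 gene. The leaf marker RCA, Rubisco activase, had signals of 17358, 15030 and 24339 in sid2.2 and of 15691, 22785 and 11743 in Col-0. No probe set was named ICS1, so the mutated gene could not check the genotype labels.

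Of the 10 genes, 8 had all 3 sid2.2 arrays above all 3 Col-0 arrays, and 2 overlapped. The count was 7 with median centring and 6 with quantile normalization. Over all 22746 probe sets that are not controls, 6.94% had sid2.2 above Col-0 without overlap; since this contrast was used in choosing the genes, nothing is read from the comparison. The mean log2 difference was above 0 for 9 genes and above 1 for 7, and its median over the 10 genes was 2.40, a 5.29-fold difference. With signals under background raised to the background level, the median was 1.87 (3.66-fold) and 6 genes lay above 1; with a pseudocount of 32 the median was 1.61 (3.05-fold). Over all probe sets that are not controls the median was 0.016, 51.4% lay above 0 and 7.42% above 1. The 6 genes above 1 both as measured and with the background level as a floor were AT1G26390, AT1G26410, AT1G30700, AT1G26380, AT5G44380 and AT1G26420. AT4G20860, AT5G44390 and AT5G44360 were under 1 either way, and AT1G26400 was above 1 only through signals under background.

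**Figure D1:**
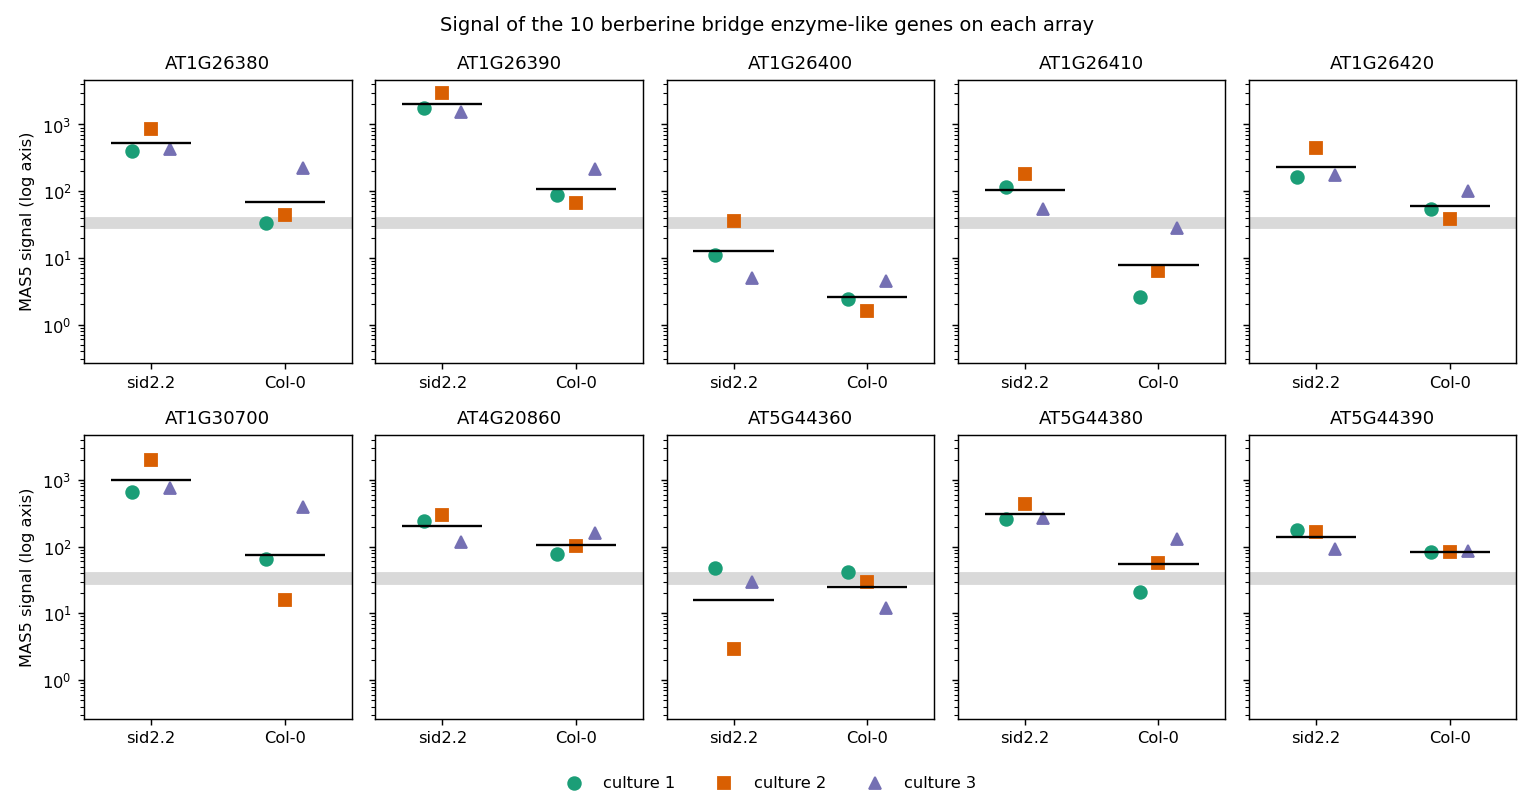
Signal of each gene on the 6 arrays (log axis; points are arrays, shaped by culture; horizontal lines are geometric means of 3 arrays; the grey band spans the background levels of 27.9 to 39.9). In 8 panels the sid2.2 points all lie above the Col-0 points; AT4G20860 and AT5G44360 overlap.

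The tandem run AT1G26380 to AT1G26420 on chromosome 1 holds 5 family genes in a row with no other protein-coding gene between them, and none of the 5 overlapped between the genotypes, AT1G26400 on signals mostly under background. AT1G26390 had signals of 1758, 3005 and 1526 in sid2.2 cultures 1, 2 and 3, against 86.2, 66.1 and 216 in Col-0. Every sid2.2 array was at least 2.82 log2 units above every Col-0 array, the widest gap of the 10 genes. Its mean log2 difference was 4.23 (SE 0.45), an 18.7-fold difference.

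AT1G26380, which encodes FOX1, had signals of 400, 851 and 426 in sid2.2 and of 33.3, 43.9 and 224 in Col-0. Col-0 culture 3 stood well above the other Col-0 arrays and was 0.84 log2 units below the lowest sid2.2 array. The mean log2 difference was 2.93 (SE 0.67). FOX1 makes a precursor in the indolic branch of defence metabolism. Of 13 loci listed for that branch, CYP71B6, a cytochrome P450 of indole carboxylic acid synthesis, was the 1 with a probe set of its own.

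CYP71B6 had signals of 2352, 3138 and 2506 in sid2.2 and of 1194, 1286 and 1676 in Col-0. The genotypes did not overlap, and the log2 difference of 0.95 (SE 0.22) did not pass among the 13647 probe sets tested (limma adjusted p = 0.394). The other 12 indolic loci, and all 9 loci listed for cell wall damage signalling, had no probe set named for them alone and were not analysed here.

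AT1G26420, at the other end of the run, had signals of 163, 439 and 175 in sid2.2 and of 54.1, 38.7 and 100 in Col-0. Its log2 difference was 1.97 (SE 0.48), the smallest of the 3 genes of the run that were above background on every array. Here too the highest Col-0 array was culture 3, 0.70 log2 units under the lowest sid2.2 array.

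The middle genes of the run, AT1G26400 and AT1G26410, were below the low-signal limit. AT1G26410 had signals of 116, 179 and 54.7 in sid2.2, all above background, against 2.57, 6.35 and 28.2 in Col-0, all at or below background. Against the background level of the Col-0 arrays, sid2.2 was at least 3.43-fold higher. The log2 difference taken from the signals themselves was 3.76 (SE 0.88, from the fit without the limit), a value that rests on Col-0 signals under background; it was 1.78 with the Col-0 signals raised to the background level.

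AT1G26400 had signals of 11.1, 36.3 and 4.91 in sid2.2 and of 2.398, 1.597 and 4.501 in Col-0. Only sid2.2 culture 2 was above its array's background, and no Col-0 array was. No fold is given for it, and its place among the genes without overlap rests on signals that are mostly below background. Its log2 difference was 2.28 as measured and 0.34 with signals raised to the background level.

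AT1G30700 is the first gene of a second run on chromosome 1, which reaches to AT1G30760. Its signals were 667, 1988 and 762 in sid2.2 and 66.4, 15.9 and 398 in Col-0. It had the widest spread among the Col-0 arrays of the 10 genes: Col-0 culture 3 was 3.61 log2 units above the mean of the other Col-0 arrays, and Col-0 culture 2 was below background. The log2 difference was 3.75 (SE 0.99), with a gap of 0.75 between the lowest sid2.2 and the highest Col-0 array.

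On chromosome 5, AT5G44360, AT5G44380 and AT5G44390 lie in a run with 3 further family genes and did not share a pattern. AT5G44380 had signals of 260, 435 and 267 in sid2.2 and of 21.1, 57.9 and 131 in Col-0. The genotypes were 0.99 log2 units apart at their closest, and the mean log2 difference was 2.52 (SE 0.59).

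AT5G44390 had signals of 175, 169 and 92.0 in sid2.2, against 84.6, 83.7 and 85.7 in Col-0. Its Col-0 arrays were nearly equal (84.7 ± 0.97, SD, n = 3), and sid2.2 culture 3 was only 0.10 log2 units above them. The log2 difference was 0.72 (SE 0.32).

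AT5G44360, reported as a second cellodextrin oxidase, was near background throughout, with signals of 48.2, 2.88 and 29.5 in sid2.2 and of 42.0, 29.2 and 12.03 in Col-0. It was above background on 1 sid2.2 and 2 Col-0 arrays, and the genotypes overlapped. Its log2 difference was -0.61 (SE 1.05, from the fit without the low-signal limit), the only negative value of the 10, and it turned sign in 4 of 18 alternative analyses. The background floor was among these, at 0.15, which is under the 0.21 that a probe set below background on every array gives.

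AT4G20860, which encodes CELLOX1, lies in a run on chromosome 4 and was measured well above background on every array. Its signals were 240, 299 and 120 in sid2.2 and 76.8, 102 and 159 in Col-0. In culture 3 the order was turned, with sid2.2 0.41 log2 units below Col-0. The mean log2 difference was 0.93 (SE 0.41).

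Limma tested 7 of the 10 genes, those past the low-signal limit, a signal of 79.8. AT1G26380, AT1G26420, AT1G30700 and AT5G44380 passed it only through their sid2.2 arrays. Their mean log2 signals in Col-0 (6.11, 5.89, 6.23 and 5.76) lay under the limit. In that fit limma called AT1G26390 (adjusted p = 0.0495) and not the other 6 (adjusted p from 0.380 to 0.680). This fit called 0.022% of the probe sets in either direction and 0.0147% as higher in sid2.2. With culture added as a block AT1G26390 was no longer called (adjusted p = 0.414), nor was any other probe set (550 had an unadjusted p below 0.05). Because the genes were picked on this contrast, these p-values carry no weight of their own. The count also turned on 1 array. Without Col-0 culture 3, limma called 302 of the 13647 probe sets tested, with 5 of the 7 genes among them (AT1G26380, AT1G26390, AT1G26420, AT1G30700 and AT5G44380). It called the same 5 and AT4G20860 among 728 of the 13647 when both arrays of culture 3 were left out, and 0 when another array or culture was. The arrays least correlated with the others of their own genotype were sid2.2 culture 2 and Col-0 culture 3. When both were left out, the same 5 were called among 235 of the 13647 probe sets.

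**Figure D2:**
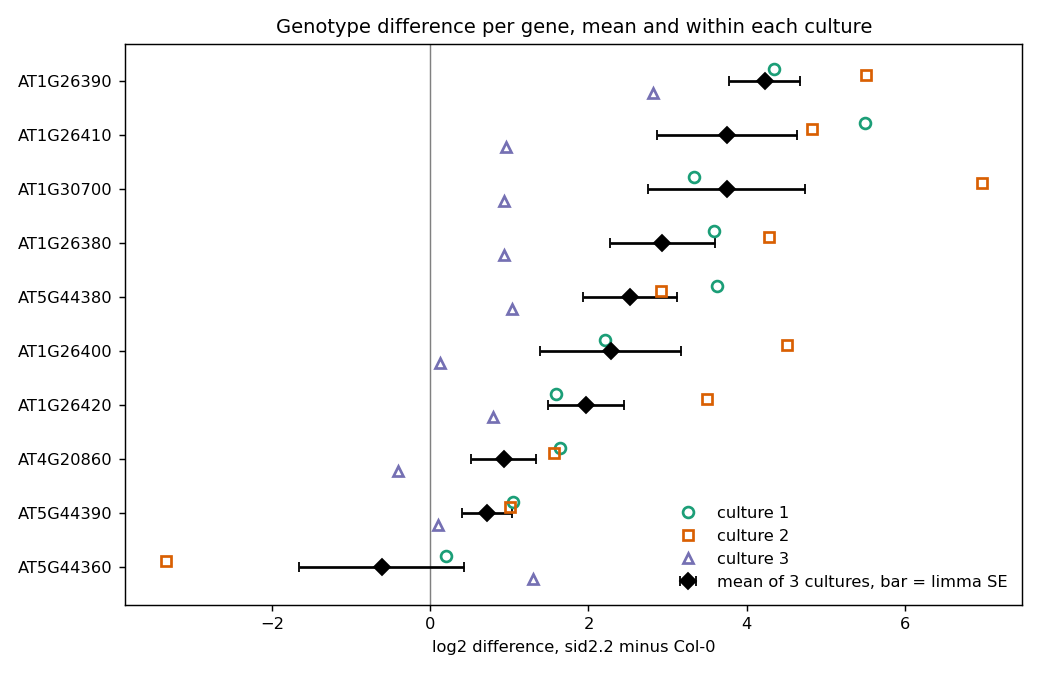
Log2 difference between sid2.2 and Col-0 for each gene (black diamonds are means over 3 cultures with the limma standard error; open symbols are the differences within a culture). AT1G26390 is farthest to the right at 4.23, and culture 3 lies leftmost for every gene but AT5G44360, whose culture 3 signals are under background.

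The difference between genotypes was unequal over the cultures. Within cultures 1, 2 and 3 the median log2 difference over the 10 genes was 2.77, 3.89 and 0.93, beside medians of 0.11, 0.0018 and -0.066 over the 13647 probe sets tested. Culture 3 gave the smallest difference for 9 of the 10 genes, AT5G44360 being the exception. AT1G26390 differed by 4.35, 5.51 and 2.82, AT1G30700 by 3.33, 6.97 and 0.94, and AT1G26380 by 3.59, 4.28 and 0.93. In culture 3 AT1G26390 was thus the 1 gene with a difference above 2 log2 units, while AT5G44360 (1.29) and AT5G44380 (1.03) were the others above 1. Both culture 3 signals of AT5G44360 were under background (29.5 in sid2.2 and 12.03 in Col-0). Its value, and its place as the exception, are therefore not a measured difference. With 1 array per genotype in a culture, these differences have no replicate check within it.

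The pattern within a genotype was also shared by most of the genes. In Col-0 the highest array was culture 3 for 9 of the 10 genes, and over all probe sets that are not controls for 39.3%. In sid2.2 the highest array was culture 2 for 8 of the 10, and over all those probe sets for 33.2%. Both held together for 8 genes and for 20.1% of those probe sets, and for 26.7% of the 1579 probe sets that were higher in sid2.2 without overlap. AT5G44360 had its lowest signals on these same arrays (2.88 in sid2.2 culture 2 and 12.03 in Col-0 culture 3). Both were under background, so no opposite pattern is read from them. AT5G44390 had its highest sid2.2 signal in culture 1, and its Col-0 signals were nearly equal (84.6, 83.7 and 85.7), so it had no clear Col-0 peak. The Col-0 signals of AT1G26400 and AT1G26410 were all under background, so their highest Col-0 array is not a measured peak either.

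**Figure D3:**
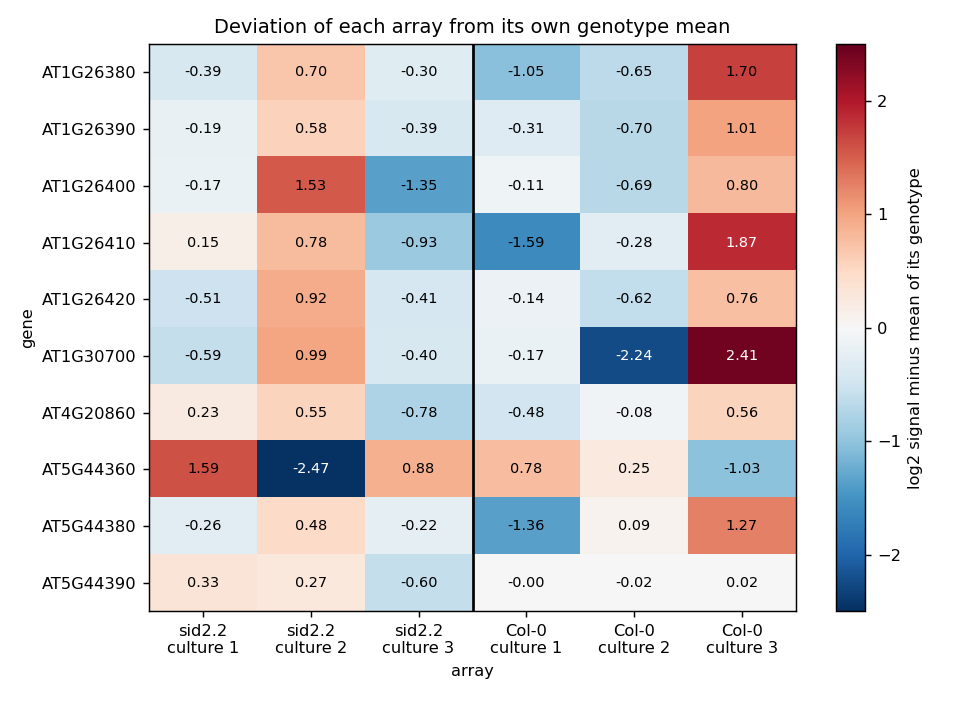
Log2 signal of each array minus the mean of its own genotype, for each gene (rows) on the 3 sid2.2 and 3 Col-0 arrays (columns). Col-0 culture 3 is above its genotype mean for 9 genes, by up to 2.41 for AT1G30700 and by only 0.017 for AT5G44390. AT5G44360 deviates the other way on both arrays that are high for most genes, with signals under background there. All Col-0 signals of AT1G26400 and AT1G26410 are under background too.

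The high arrays of these genes came from different cultures in sid2.2 (culture 2) and Col-0 (culture 3). In limma's F test of culture beside genotype, a comparison not used to choose the genes, 0 of the 7 tested genes were called and 0 had an unadjusted p below 0.05 (unadjusted p from 0.155 to 0.793; smallest adjusted p = 0.9999). Over all probe sets tested, this test called 0%, and 0.213% (29 probe sets) had an unadjusted p under 0.05. With 1 array per genotype in a culture, it can find only shifts that both genotypes of a culture share. It could hardly call genes whose high arrays lie in different cultures, so no conclusion is drawn from it.

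Some marker and quality values moved along with part of this pattern, and others did not. SAG29, a senescence-associated sugar transporter, had signals of 288, 469 and 364 in sid2.2 and of 86.6, 128 and 172 in Col-0, without overlap and highest on the same arrays of each genotype as most of the oxidase genes. Its log2 difference was 1.56 (SE 0.32; limma adjusted p = 0.348). The root marker PYK10 had signals of 232, 31.99 and 115 in sid2.2 and of 83.8, 170 and 44.4 in Col-0, lowest on those same arrays, and the leaf marker RCA was lowest on them too (15030 in sid2.2 culture 2 and 11743 in Col-0 culture 3). The ratio of 3' over 5' actin signal, which grows as targets get shorter, was 5.34, 6.51 and 8.34 in sid2.2 and 4.91, 4.85 and 4.81 in Col-0 (exact two-sided permutation p = 0.1, the smallest that 3 against 3 can give; 0.2 adjusted over 4 ratios). A GAPDH ratio was likewise higher on every sid2.2 array, with 2.93, 3.26 and 3.87 in sid2.2 and 2.81, 2.74 and 2.33 in Col-0 (exact permutation p = 0.1, adjusted 0.2). Both ratios were highest on sid2.2 culture 3 and lowest on Col-0 culture 3, the array on which most of the oxidase genes had their highest Col-0 signal. A second actin ratio overlapped, with 17.3, 37.1 and 23.3 in sid2.2 and 24.7, 15.02 and 19.7 in Col-0 (exact permutation p = 0.5, adjusted 0.6). It was highest on sid2.2 culture 2, as most of the oxidase genes were, but in Col-0 on culture 1, unlike them. A second GAPDH ratio also overlapped (exact permutation p = 0.6, also after adjustment). The part of these measures in the differences between genotypes was not tested.

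The rest of the family was measured in part. Of 17 further loci, 12 had a probe set of their own and 5 were above the low-signal limit; limma called 0 of these 5, and 0 had an unadjusted p below 0.05, as 7.4% of the probe sets tested did. The median log2 difference of the 12 was 0.33, with 8 above 0 and 4 below, where 51.4% of all probe sets that are not controls lay above 0. The signals of the 7 below the limit were mostly under background. For the 5 above it the median was 0.20. AT4G20830, which encodes OGOX1, had signals of 603, 1487 and 713 in sid2.2 and of 774, 403 and 777 in Col-0, with a log2 difference of 0.47 (SE 0.39; limma adjusted p = 0.825). The genotypes overlapped, and the sign turned between cultures.

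AT4G20820, beside it on chromosome 4, had 463, 651 and 606 in sid2.2 and 547, 211 and 1037 in Col-0, a log2 difference of 0.20 (SE 0.50; limma adjusted p = 0.936). On chromosome 5, AT5G44400 differed by 0.029 (SE 0.51; adjusted p = 0.991) and AT5G44410 by -0.51 (SE 0.36; adjusted p = 0.791). AT2G34810, which lies outside the 4 runs, differed by 0.46 (SE 0.35; adjusted p = 0.808). All of these overlapped between genotypes.

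The 7 further loci below the limit were AT1G11770, AT1G30710, AT1G30740, AT1G30760, AT1G34575, AT4G20800 and AT5G44440, and only AT4G20800 and AT5G44440 exceeded background on any array. AT4G20800 had signals of 28.7, 31.9 and 5.38 in sid2.2, of which the culture 2 value was above background, and of 2.66, 4.27 and 7.47 in Col-0. AT5G44440 exceeded background on 1 array of each genotype.

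A pair of probe sets could not be given to 1 gene. The probe set shared by AT1G30720 and AT1G30730, in the run of AT1G30700, had signals of 118, 203 and 122 in sid2.2 and of 19.1, 4.18 and 58.0 in Col-0. It did not overlap between the genotypes and had the same high arrays as AT1G30700; it lay below the low-signal limit. Its log2 difference was 3.10 (SE 0.86), which rests on Col-0 signals under background on all but culture 3, and was 1.94 with signals raised to the background level. The probe set shared by AT4G20830 and AT4G20840 had 116, 161 and 137 in sid2.2 and 227, 226 and 190 in Col-0, lower in sid2.2 without overlap (log2 difference -0.64, SE 0.25; limma adjusted p = 0.627). It ran against AT4G20830's own probe set, which overlapped. Cross-hybridisation between these similar genes was not tested.

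**Figure D4:**
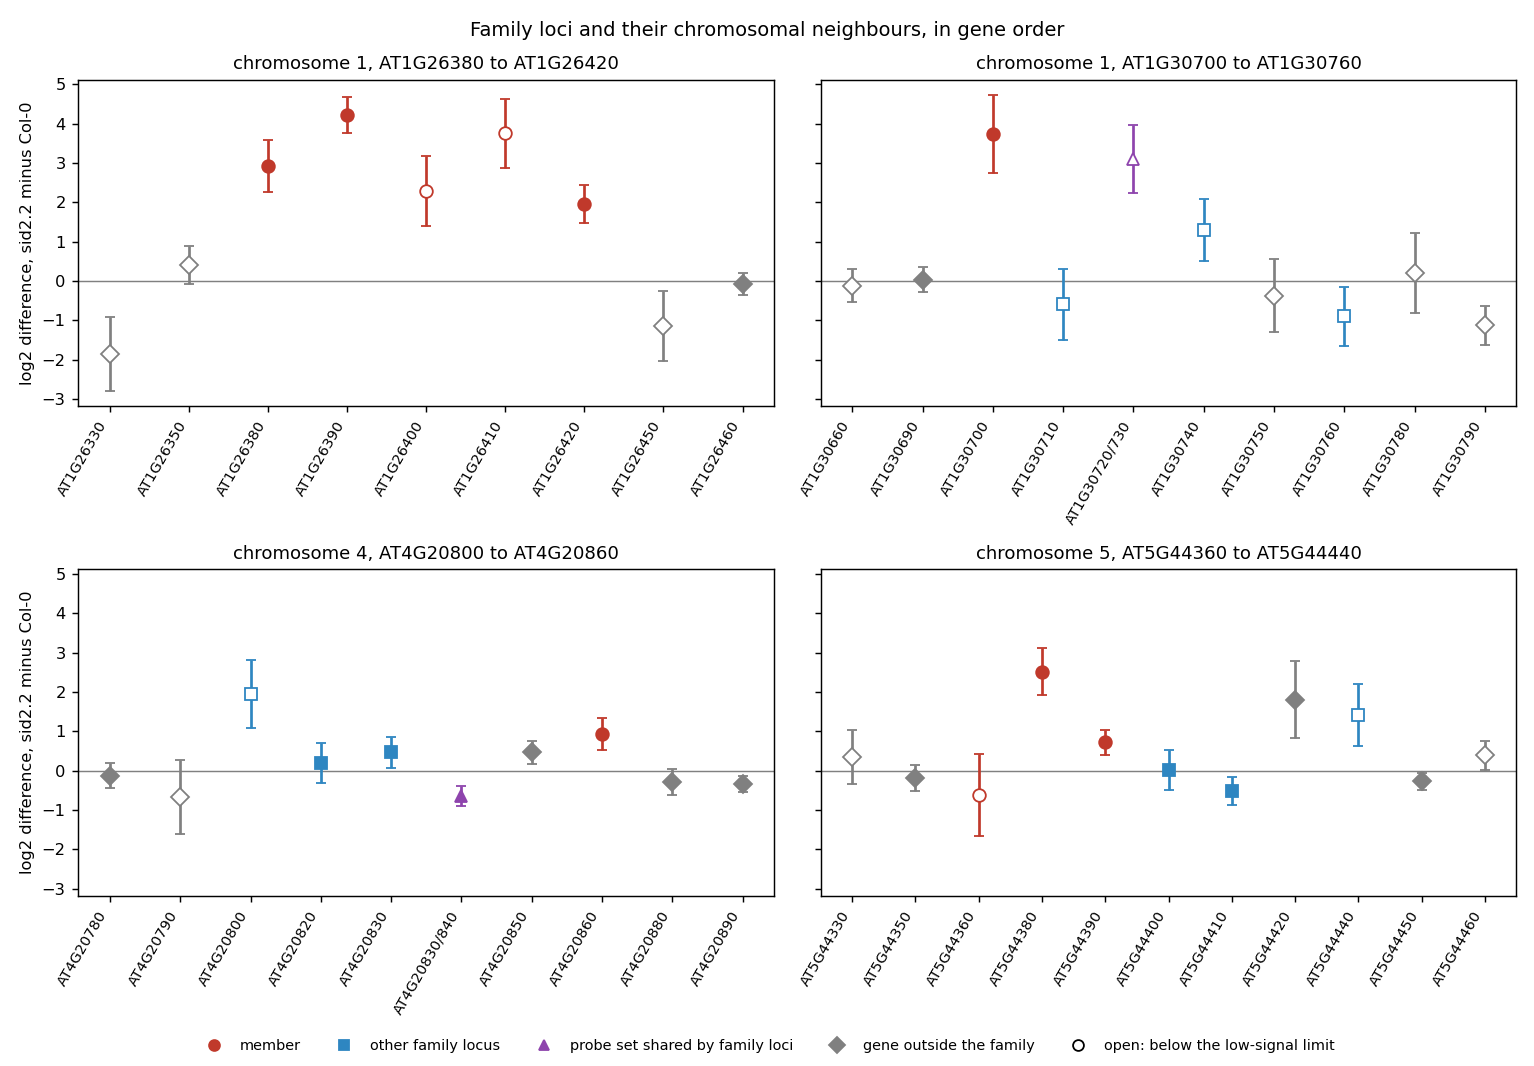
Log2 difference between sid2.2 and Col-0, with its standard error, for the 4 runs of family genes in chromosomal order with genes inside the run that are not of the family and the nearest measured genes on each side. AT1G26380, AT1G26390 and AT1G26420, above background on every array, lie at 1.97 or higher, and flanking genes between -1.86 and 0.40; open symbols are below the low-signal limit, and their size rests in part on signals under background.

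Genes beside the runs were described in the same way. The 2 nearest genes with a probe set of their own on each side of the 4 runs gave 16 probe sets, with log2 differences between -1.86 and 0.40, or between -0.35 and 0.39 with signals raised to the background level. Of these, 7 were above the low-signal limit; limma called 0 of them, and 0 had an unadjusted p below 0.05. Their smallest limma adjusted p was 0.772. None of the 16 was higher in sid2.2 without overlap, where 6.94% of all probe sets that are not controls were. Only 1 was lower in that way, AT1G30790, where 4.86% of all those probe sets were. Its sid2.2 signals were all under background. Next to the AT1G26380 run, AT1G26460 had signals of 291, 246 and 162 in sid2.2 and of 206, 268 and 242 in Col-0. AT1G30690, the gene just before AT1G30700, had 340, 267 and 275 in sid2.2 and 187, 423 and 296 in Col-0, with a log2 difference of 0.028 (SE 0.32; adjusted p = 0.987).

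Inside the chromosome 5 run lies the plant defensin gene PDF1.2, with signals of 666, 176 and 399 in sid2.2 and of 249, 257 and 17.2 in Col-0. It was lowest in Col-0 culture 3, under background, where the oxidase gene AT5G44380 had its highest Col-0 signal. AT5G44390 was nearly equal over the Col-0 arrays, and the lowest Col-0 signal of AT5G44360 was also in culture 3, under background. The log2 difference of PDF1.2 was 1.80 (SE 0.98, limma adjusted p = 0.745). TPP2, a peptidase gene next to AT4G20860, differed by 0.46 (SE 0.30; adjusted p = 0.775).

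Likeness between profiles was measured as the root mean square distance between log2 signals over the 6 arrays, each gene centred on its own mean. Over the 45 pairs of the 10 genes it ran from 0.35 to 3.31 log2 units. The closest pair, AT4G20860 and AT5G44390 (0.35), joins genes with small differences. Next came AT1G26380 with AT5G44380 (0.44), on different chromosomes, and AT1G26400 with AT1G26420 (0.51), in 1 run. Within the AT1G26380 run the 10 pairs lay between 0.51 and 1.22, so neighbours on the chromosome were not in every case nearer to each other than to genes elsewhere. All 9 pairs with AT5G44360 were at least 1.62 apart. Distances of AT5G44360, AT1G26400 and AT1G26410 include signals under background.

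Among 7380 other genes past the low-signal limit, the profile nearest to AT1G26390 was OSM34, an osmotin-like defence protein, at 0.39. OSM34 had signals of 1416, 2987 and 1514 in sid2.2 and of 150, 83.6 and 343 in Col-0. The same arrays were highest in each genotype, which a choice by nearness of profile favours. Next were AT4G12500 (0.70), AT2G31945 (0.79), AT1G68620 (0.80) and AT4G12490 (0.83), of which AT4G12500 and AT4G12490 are lipid transfer protein genes. OSM34 was nearer to AT1G26390 than was any of the other oxidase genes, the closest of which was AT1G26410 at 0.74. The nearest of 7380 genes can come closer than the nearest of a few oxidase genes by number alone, so nothing is read from this order.

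The profile nearest to AT1G26380 was that of AT4G01870 (0.26), with signals of 984, 2130 and 865 in sid2.2 and of 113, 133 and 484 in Col-0. AT2G31945 (0.31) followed, then AT4G28460 (0.44), which encodes the precursor of a secreted immune peptide. AT4G33150 (0.45), which encodes the enzyme that opens lysine breakdown, and AT3G15450 (0.49) completed the 5. All 5 had, like AT1G26380, their highest Col-0 signal in culture 3, which a choice by nearness of profile favours. For AT4G33150 that signal was 754, against 759 on the lowest sid2.2 array, and its culture 3 difference was 0.066. These distances rest on 6 arrays that share their scaling and, in pairs, a culture. The profiles were centred but not scaled, so the distances depend on the size of the differences between arrays as well as on their pattern.

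**Figure D5:**
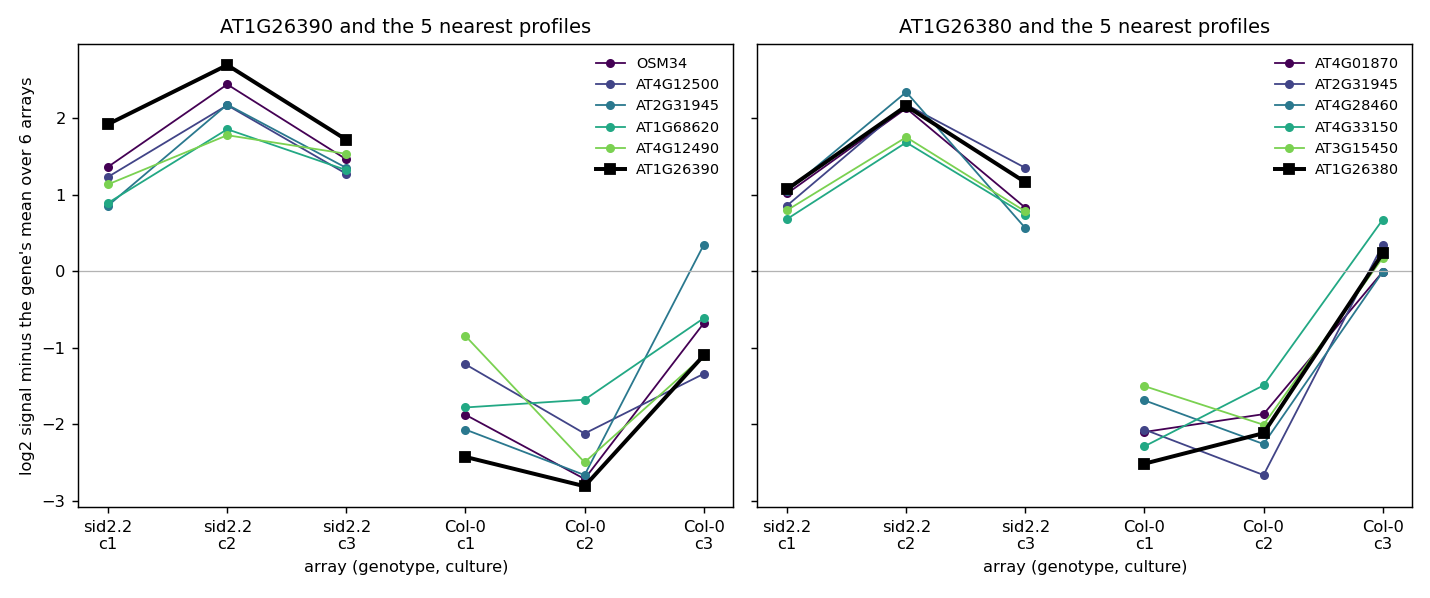
Log2 signal centred on each gene's mean over 6 arrays, for AT1G26390 (left) and AT1G26380 (right) in black and the 5 nearest genes that are not among the oxidases in colour; lines join arrays of 1 genotype. Both sets are highest in sid2.2 culture 2, and for all genes but AT4G12500 and AT4G12490 the highest Col-0 array is culture 3. The choice by nearness of profile favours such shared high arrays.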

How the data were processed

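Rosette RNA of sid2.2 and Col-0 was measured on oligonucleotide arrays, from 200 ng of total RNA per pool. The authors deposited 1 linear intensity per probe set and array; the submitters' processing notes name MAS5, with no version or setting given. The mean of each array without its top and bottom 2% was 499.78 to 499.82, so the arrays were scaled to 1 target, which hides any change in total signal. Depth does not exist for arrays; 3 arrays per genotype limit the precision (median residual SD 0.33, log2).

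Probe sets were named through the platform annotation, updated by gene identifier from a RefSeq table (TAIR10.1), which also gave gene order and chromosome. Of the 22810 probe sets, 64 are controls, 13513 have 1 gene, 503 several and 8794 none.

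Intensities were log2 transformed, the lowest 40% left out, and genotypes compared by limma (version 3.58.1, R 4.3.3: lmFit and trended eBayes, two-sided, Benjamini-Hochberg over 13647 probe sets, threshold 0.05). Genes below the limit took values from a fit without it. Errors are limma SEs of the log2 difference. The fit was tested on simulated data.

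A culture number marks a shared growth batch, per the labels, so it pairs the arrays; the block was an alternative. Deviations from the genotype mean correlated at -0.03, -0.53 and -0.55 for the arrays of cultures 1, 2 and 3.

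The genes and lists were chosen with earlier results of these data known. Genes named are the 10 loci, the other family loci, every listed indolic, cell wall damage and marker gene with a probe set of its own, and the 5 nearest profiles of AT1G26390 and AT1G26380. Chromosomal neighbours and shared probe sets were added after the values were seen. Alternatives covered normalization, the low-signal limit, a pseudocount, a background floor, the trend, the block and left-out arrays and cultures.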

Additional observations from a re-analysis of the deposited data

How the results depend on the processing

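Over the 18 alternatives, the mean difference kept its sign for the 9 genes with a positive value, and turned for AT5G44360 in 4. The log2 difference of AT1G26390 ran from 3.59 to 4.93 and its adjusted p from 0.000178 to 0.999. Limma called 3 probe sets, AT1G26390 among them. With culture as a replicate block it called 0 probe sets and 0 of the 10 genes (adjusted p = 0.414 for AT1G26390), and 550 had an unadjusted p under 0.05. Quantile normalization and a fit without the trend called 1 probe set each and 0 of the genes (adjusted p = 0.0624 and 0.0535), and no low-signal limit called 0 and 0 (0.0597; 1555 unadjusted). A pseudocount of 32 and the background floor called 5 probe sets each, AT1G26390 again. With single arrays or cultures left out, the count ran from 0 to 728 probe sets and from 0 to 6 of the genes. It was 302 and 5 without Col-0 culture 3, 728 and 6 without culture 3 of both genotypes, and 0 and 0 in the other such cases. It was 235 and 5 with sid2.2 culture 2 and Col-0 culture 3 both left out, a choice made after seeing the data. Why these counts differ was not tested. The difference of AT1G26410 was 1.69 with the pseudocount and 1.78 with the floor, against 3.76, and that of AT1G26400 was 0.46 and 0.34, against 2.28, since their low signals lie under background. Median centring moved the median of all probe sets by less than 0.1 log2 units. The culture test called 0 probe sets and 0 of the genes in its main form and in all 7 alternatives run for it, with 29 to 344 probe sets at an unadjusted p below 0.05.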
